A study of Mus musculus with 6 samples.

Results

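In the H3K27ac profiles of B16 cells, 4724 enhancer-like regions were called in both high-pigment (HP) libraries and in neither low-pigment (LP) library. They were found by merging the 4 peak lists wherever peaks overlapped by 1 bp or more. A region was kept when it held a peak of HP 1 and of HP 2 and none of LP 1 or LP 2, lay on chromosomes 1 to 19 or X, and was more than 3 kb from every annotated transcription start site (TSS). The 4724 regions are 3.58% of the 131980 distal regions that met the same limit of distance, and the 4 lists gave 182956 merged regions in all. The regions were chosen by the peak calls of all 4 lists, so their presence in HP and absence in LP is the rule itself and no finding.

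The study asked whether acetylation of histone H3 at lysine 27 (H3K27ac) differs between pigmentation states of one cell population. B16 F10 is a mouse melanoma line that pigments progressively when it is sparsely seeded. Cells seeded at 100 cells/cm2 in high-glucose medium with serum were taken on day 5 and sorted by flow cytometry on side scatter, which rises with melanin content, into LP and HP. Each state had 2 H3K27ac libraries, and 2 IgG libraries of unsorted B16 cells served as background for peak calling and have no list of their own. LP and HP share the line, the seeding, the day and the antibody, and differ by the sorting gate, so side scatter stands in for pigment. No label says that replicates came from separate cultures, so every spread and p-value given here is that between these libraries. The lists rest on 11467942 and 15353176 fragments in LP and 11483830 and 14254904 in HP. Of 7 melanocyte marker genes, such as Mitf, Tyr and Pmel, all 7 had a promoter region called in all 4 libraries. No keratinocyte, fibroblast or leukocyte marker had one, although 2 of 4 keratinocyte, 4 of 4 fibroblast and 1 of 4 leukocyte markers had a promoter peak in some library, and 1 of 3 endothelial markers (Pecam1) did.

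H3K27ac is laid down by the acetyltransferases p300 and CBP and marks active promoters and enhancers. An enhancer lies away from the start of its gene, within introns or between genes, and binds transcription factors that recruit these enzymes. In melanocytes MITF, SOX10, PAX3 and TFAP2 proteins occupy such elements near genes of melanin synthesis, where MITF recognises the M-box and the related E-box. H3K27ac alone does not show that a region acts as an enhancer, or on which gene, so each region is named here after the nearest protein-coding TSS.

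The reference sequence (GRCm38, the assembly of mm10, plus strand) is given for 100 bases on either side of the highest summit of 9 regions. The set holds 4 of the 5 regions of best mean rank by q-value in HP 1 and HP 2, which the calls turned on most. It also holds the best region of 5 of the 6 pigment cell genes whose regions ranked highest. Capitals mark matches on either strand to any of 12 short motifs spelled out with the motif shares.
Dync1h1, chr12:110557472-110557672: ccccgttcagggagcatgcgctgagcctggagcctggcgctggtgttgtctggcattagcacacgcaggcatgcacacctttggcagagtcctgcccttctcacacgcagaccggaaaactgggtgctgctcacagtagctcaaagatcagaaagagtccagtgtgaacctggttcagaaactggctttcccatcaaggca
Efcab1, chr16:14828259-14828459: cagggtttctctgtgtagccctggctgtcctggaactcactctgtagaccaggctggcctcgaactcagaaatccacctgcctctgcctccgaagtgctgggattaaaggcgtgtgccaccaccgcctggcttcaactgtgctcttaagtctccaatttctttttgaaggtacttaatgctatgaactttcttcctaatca
Abl1, chr2:31769843-31770043: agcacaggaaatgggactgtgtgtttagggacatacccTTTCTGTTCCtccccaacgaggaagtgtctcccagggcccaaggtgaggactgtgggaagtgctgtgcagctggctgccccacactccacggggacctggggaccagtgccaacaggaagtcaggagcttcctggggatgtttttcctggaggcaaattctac
Bahcc1, chr11:120312951-120313151: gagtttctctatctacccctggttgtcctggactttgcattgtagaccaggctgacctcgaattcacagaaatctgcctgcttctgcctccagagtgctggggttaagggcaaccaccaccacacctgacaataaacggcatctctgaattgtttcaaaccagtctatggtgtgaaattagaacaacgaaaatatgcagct
Ednrb, chr14:103898000-103898200: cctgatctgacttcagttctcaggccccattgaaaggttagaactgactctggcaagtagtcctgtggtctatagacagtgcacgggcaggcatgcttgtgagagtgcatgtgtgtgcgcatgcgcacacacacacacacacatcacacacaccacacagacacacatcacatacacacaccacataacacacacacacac
Gnaq, chr19:16168594-16168794: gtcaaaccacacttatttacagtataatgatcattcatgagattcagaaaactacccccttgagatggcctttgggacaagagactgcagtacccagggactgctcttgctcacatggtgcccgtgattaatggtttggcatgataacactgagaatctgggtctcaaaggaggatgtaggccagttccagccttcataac
Mreg, chr1:72196691-72196891: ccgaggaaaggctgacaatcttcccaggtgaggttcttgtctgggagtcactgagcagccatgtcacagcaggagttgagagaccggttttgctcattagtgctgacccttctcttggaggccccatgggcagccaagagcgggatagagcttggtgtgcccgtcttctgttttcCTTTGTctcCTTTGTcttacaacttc
Atp7a, chrX:106072047-106072247: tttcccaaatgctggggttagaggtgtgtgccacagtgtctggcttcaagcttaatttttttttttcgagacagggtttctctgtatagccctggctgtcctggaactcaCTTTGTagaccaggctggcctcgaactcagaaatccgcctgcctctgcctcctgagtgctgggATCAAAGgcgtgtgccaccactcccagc
Mitf, chr6:98105675-98105875: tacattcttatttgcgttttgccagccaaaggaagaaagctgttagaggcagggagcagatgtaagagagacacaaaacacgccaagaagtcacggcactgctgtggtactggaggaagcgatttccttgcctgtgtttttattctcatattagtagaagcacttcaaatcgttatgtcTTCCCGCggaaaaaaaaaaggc

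The genome file marks interspersed and simple repeats, and the windows differed widely in them. Marked repeats covered none of the Dync1h1, Abl1 and Gnaq windows, 93.0% of the Efcab1 window, 66.2% of the Bahcc1 window and 51.7% of the Ednrb window, which ends in a CA repeat. The Atp7a window was 96.5% repeat, against 10.4% for Mreg and 8.46% for Mitf. Over all 4724 regions the mean was 20.97%, and 743 windows (15.7%) were mostly repeat. Of the best-ranked 5, 3 were mostly repeat. The best-ranked 50 held 12 such windows (24.0%) and the best-ranked 500 held 65 (13.0%). All distal regions averaged 30.8%, with 25.9% of windows mostly repeat. Fragments from repeats can align to more than 1 place, and their part in these calls was not tested.

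Of the 48 regions nearest to genes of melanocyte transcription factors or receptors, 4 held TCACGTG or TCATGTG within 100 bases of the summit. These letters are the core of MITF sites. Over all 4724 HP-only regions, 229 windows held either form (4.85%), beside 4.84% of all distal windows. The 4 are shown because MITF is the central factor of the lineage. Up to 20 bases surround the letters, which are in capitals.
Pax3, chr1:78062385-78062431: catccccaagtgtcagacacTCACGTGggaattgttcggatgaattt
Foxd3, chr4:99495212-99495258: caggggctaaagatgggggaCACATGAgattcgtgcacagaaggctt
Mitf, chr6:97964776-97964802: ttcttcaccccttggttttcTCATGTG
Sox5, chr6:144758195-144758222: cCACGTGActgtgactgaaaggcctctg

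The best-ranked region lay in an intron of Ppp2r5c on chromosome 12, from 110555466 to 110557808, with Dync1h1, the heavy chain of the dynein motor, as its nearest protein-coding TSS. Its pileup, the number of fragments over the highest summit, was 39 in HP 1 and 57 in HP 2. Divided by the fragments of the library and multiplied by 1000000, this is a scaled pileup of 3.40 in HP 1 and 3.999 in HP 2. Both values were above the 90th percentile of all 4724 regions, 1.57 in HP 1 and 1.82 in HP 2. The nearest LP peak was 32.9 kb away.

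The second-ranked region, in an intergenic stretch of chromosome 16 nearest to Efcab1, had a scaled pileup of 2.35 in HP 1 and 3.86 in HP 2. The third lay in the first intron of Abl1, a tyrosine kinase, and had 2.35 in HP 1 and 4.07 in HP 2. For Bahcc1, which encodes a chromatin reader, the values were 2.70 and 3.16 at an intergenic region. An LP peak, outside the merged region, lay 0.151 kb from the Efcab1 region, 0.551 kb from the Abl1 region and 0.490 kb from the Bahcc1 region. The fifth, nearest to Mccc2, a carboxylase subunit of leucine breakdown, had 2.09 in HP 1 and 3.37 in HP 2.

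A region nearest to 2010315B03Rik on chromosome 9, from 124256366 to 124257178, stood apart from all others and was picked out after its values were seen. Its pileup was 180 in HP 1 and 317 in HP 2, a scaled pileup of 15.7 and 22.2. The next highest scaled pileups of any region were 3.48 in HP 1 and 5.33 in HP 2. Its fold enrichment over the local background was among the lowest, 2.28 in HP 1 and 2.12 in HP 2. Its window was 100% repeat, and an LP peak lay 0.370 kb away.

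Most of the HP-only regions carried few fragments. The median pileup was 11 fragments in HP 1 and 15 in HP 2, and 730 regions (15.5%) had 10 or fewer in both. The median scaled pileup was 0.958 in HP 1, with a 10th to 90th percentile of 0.610 to 1.57. In HP 2 the median was 1.05, with a 10th to 90th percentile of 0.561 to 1.82. A peak needed at least 5 or 6 fragments to be called, depending on the library, and 1 fragment was worth between 0.0651 and 0.0872 of scaled pileup. Only 52 regions reached a scaled pileup of 2 in both HP libraries.

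Distal regions called in all 4 libraries were higher, with medians of 1.83 in HP 1 and 2.88 in HP 2, and of 1.05 and 1.17 in LP 1 and LP 2. Regions called in both HP and 1 LP library lay between, with 1.13 in HP 1 and 1.47 in HP 2. The median fold enrichment of the HP-only regions over the local background was 5.37 in HP 1 and 5.63 in HP 2, against 9.46 and 14.6 for the distal regions of all 4 libraries. A region under the calling threshold has no LP value in the lists, so no HP to LP ratio can be formed for the 4724 regions.

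**Figure D1:**
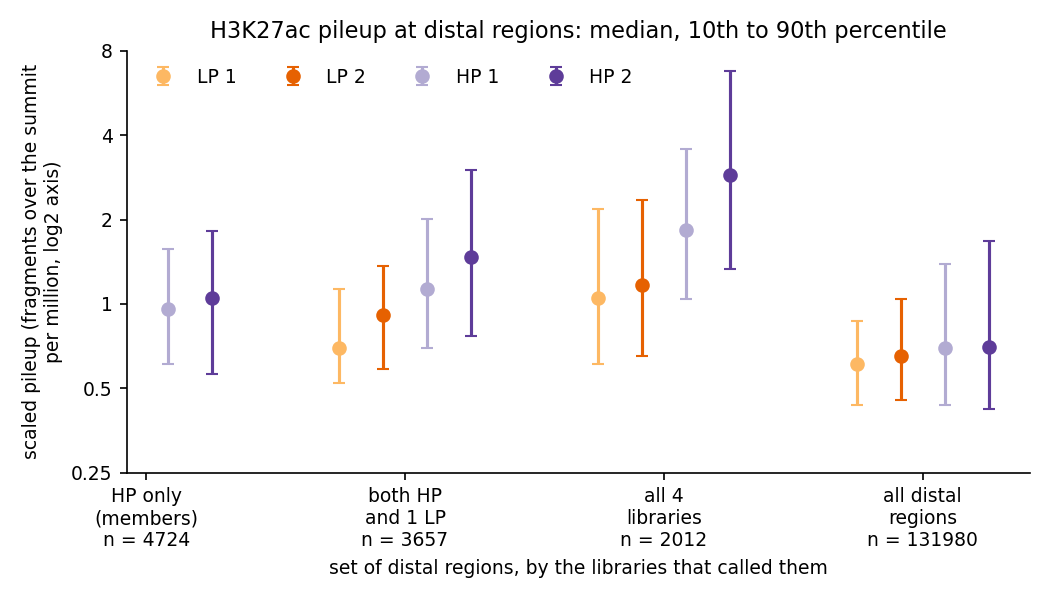
Scaled pileup (fragments over the highest summit, scaled to 1000000 fragments, log2 axis) of 4 sets of distal regions in the libraries that called them. Points are medians over regions and bars run from the 10th to the 90th percentile. The HP-only regions have medians of 0.958 in HP 1 and 1.05 in HP 2, below the 1.83 and 2.88 of regions called in all 4 libraries, and no LP values.

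The 2 HP libraries ranked the 4724 regions only loosely alike. Across regions, the log2 scaled pileups of HP 1 and HP 2 had a Pearson r of 0.449 and a Spearman rho of 0.426 over 4724 regions, which share both libraries and the same lower limit of calling. The median log2 ratio of HP 2 to HP 1 was 0.10, with a 10th to 90th percentile of -0.67 to 0.91, and 2722 regions (57.6%) were higher in HP 2. Once each library was divided by its median over the regions called in all 4, the median log2 ratio was -0.65, so the order of the libraries at these regions turned with the scaling. In 2215 regions (46.9%) the summits of both libraries lay within 100 bp of each other, and the median distance was 110 bp.

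The calls at the edge of the rule were weak. The lower of the 2 HP values of -log10 q was under 2 in 426 regions (9.02%), with a lowest value of 1.31, while 474 regions reached 10 in both. On the far side of the rule, 3657 distal regions had both HP peaks and 1 LP peak, 746 of them from LP 1 and 2911 from LP 2. In 273 of these (7.47%) the LP peak had a -log10 q under 2, with a median LP scaled pileup of 0.523. By distance, the regions just inside the 3 kb limit lay 3007 to 3013 bp from a TSS, of genes such as Adam9 and Piezo1. Those just outside lay 2983 to 2998 bp from one, of genes such as Hmox1 and Spdl1. The 4724 regions were 45.5% of the 10393 distal regions called in both HP libraries. Without LP 2 the rule gave 7667 regions and without LP 1 it gave 5477. With HP 1 alone it gave 30510, and with HP 2 alone 33656.

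The HP-only regions lay within genes more often than not. Introns held 2603 of them (55.1%, 95% Wilson interval 53.7 to 56.5), of which 1366 were in a first intron and 1237 in another intron. Exons of any transcript were touched by 411 (8.70%), and 1710 (36.2%) were intergenic. Throughout, a region was counted in a first intron when it touched the first intron of any transcript and no exon. Introns held 47.9% of the distal regions called in all 4 libraries (45.7 to 50.1), 55.6% of those called in both HP and 1 LP, and 47.7% of all distal regions. First introns held 28.9% of the HP-only regions (27.6 to 30.2), close to the 28.6% of the regions of all 4 libraries and above the 21.4% of all distal regions. The intervals cover counting error only, and neighbouring regions are not independent, so no test was made. With protein-coding transcripts only, introns held 51.4%.

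**Figure D2:**
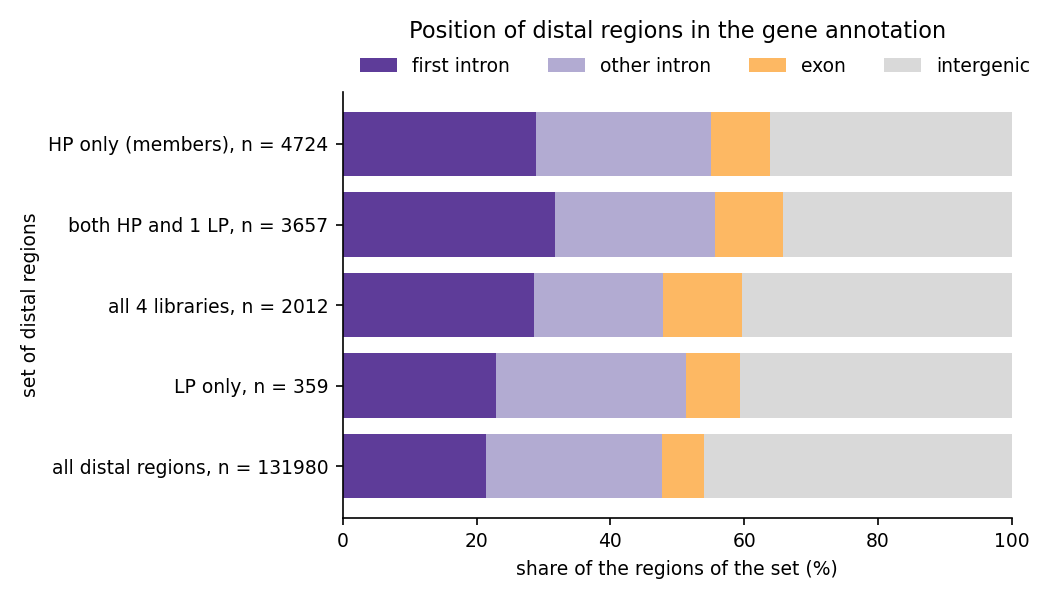
Share (%) of the regions of 5 sets of distal regions in first introns, other introns, exons and intergenic sequence. In the HP-only regions first introns take 28.9%, other introns 26.2%, exons 8.70% and intergenic sequence 36.2%, against 46.0% intergenic among all distal regions.

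The regions were narrower than those called in more libraries and wider than LP-only regions. The median width was 578 bp, with a 10th to 90th percentile of 327 to 1116 bp and a range from 196 to 3020 bp. Regions of all 4 libraries had a median of 1600.5 bp, those of both HP and 1 LP 929 bp, those of LP only 403 bp and all distal regions 250 bp. Width grows with the number of lists merged, so the widths of sets with different numbers of lists differ by construction. The median distance to the nearest TSS of any transcript was 12027 bp, against 16784 bp for all distal regions. GC content within 100 bases of the summit had a median of 51.2%, between the 46.8% of all distal regions and the 55.7% of those called in all 4 libraries. The share of distal regions that were HP-only ran from 2.07% on chromosome X to 4.91% on chromosome 11.

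Peaks of 1 or the other LP library often lay close to HP-only regions. The lists held 57942 peaks for LP 1 and 66580 for LP 2. Distances to LP peaks were not measured for other sets, so this closeness has no baseline. The median distance to the nearest peak of either LP library was 2398.5 bp. An LP peak lay within 1 kb of 1524 regions (32.3%) and within 5 kb of 67.2%, while 762 regions had none within 10 kb. A distal region called in all 4 libraries lay within 10 kb of 760 regions (16.1%). Leaving out the regions with an LP peak within 1 kb kept 3200.

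Many of the regions had a close neighbour of the same kind. Another HP-only region lay within 10 kb of 1453 regions (30.8%), and the median distance to it was 42299 bp. The same share was 23.5% for the distal regions of all 4 libraries and 26.4% for those of both HP and 1 LP, and 2 of the 359 LP-only regions had such a neighbour. A set with more members has nearer neighbours by number alone. With peaks within 500 bp joined before merging, the rule gave 3952 regions, and 15.97% of them had a neighbour within 10 kb.

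**Figure D3:**
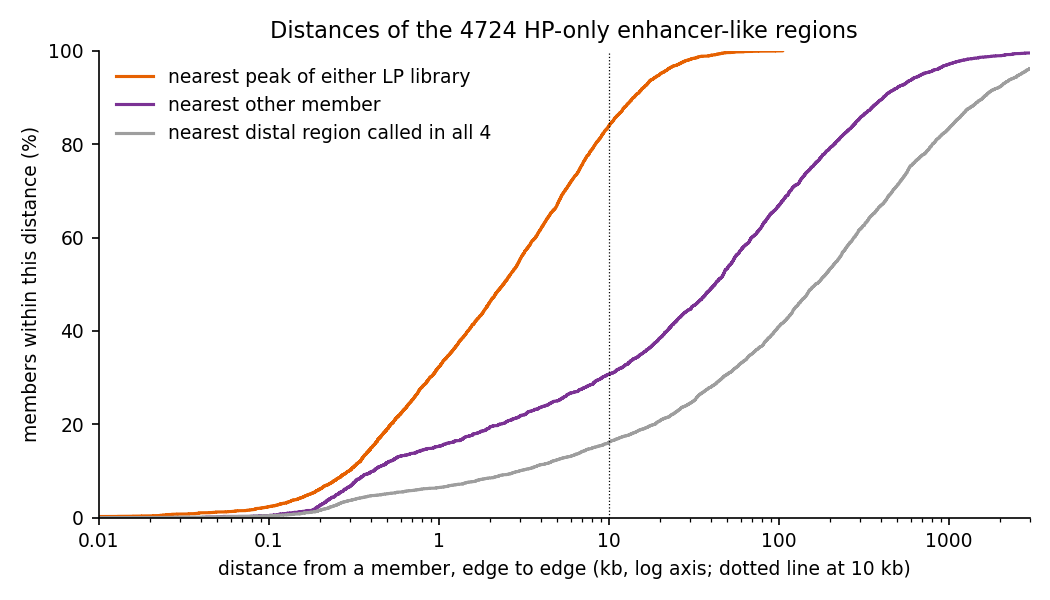
Share (%) of the 4724 HP-only regions with the nearest LP peak, the nearest other HP-only region or the nearest distal region of all 4 libraries within a given distance (kb, edge to edge, log axis). At the dotted line of 10 kb the curves stand at 83.9%, 30.8% and 16.1%.

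When HP-only regions at most 10 kb apart were joined, 640 runs held at least 2 regions and 124 runs held at least 3. The longest run by number had 11 regions over 41.3 kb in introns of Fam198b, which encodes a Golgi protein (chromosome 3, 79890752 to 79932063). Their scaled pileups ran from 0.435 to 1.22 in HP 1 and from 0.561 to 1.75 in HP 2. Hmga2, an architectural chromatin protein of embryonic and tumour cells, had a run of 10 intronic regions over 25.3 kb (chromosome 10, 120394306 to 120419627). These had scaled pileups from 0.522 to 1.74 in HP 1 and from 0.491 to 2.39 in HP 2.

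Ets1, a transcription factor of the ETS family, had a run of 9 regions over 28.1 kb (chromosome 9, 32718900 to 32747033). Of these, 4 were counted in a first intron. A run of 7 regions over 19.5 kb lay between Tef, a PAR bZIP factor, and Tob2, an antiproliferative protein, on chromosome 15. Downstream of Irf2bp2, a corepressor of IRF2, 6 intergenic regions covered 17.95 kb of chromosome 8. These runs were not free of LP acetylation: LP peaks overlapping their spans numbered 12 at Fam198b, 2 at Hmga2, 6 at Ets1, 6 at Tef and Tob2 and 2 at Irf2bp2.

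The nearest-gene assignment spread the 4724 regions over 2876 protein-coding genes, of which 1852 had 1 region, 91 had at least 5 and 8 had at least 10. Ets1 had the most, with 15 of its 87 distal regions. The best-ranked at Ets1, on chromosome 9 from 32719995 to 32720939, had a scaled pileup of 1.31 in HP 1 and 1.96 in HP 2, while its weakest had 0.522 and 0.491. The highest values at Ets1 were 1.57 in HP 1 and 2.17 in HP 2, at different regions. Hmga2 followed with 14 of 70 and Fam198b with 13 of 81.

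Irf2bp2 and Bcas3, which encodes an autophagy and cell migration protein, had 11 each, of 50 and 69 distal regions. Dst, a cytoskeletal linker, also had 11, of 95. All of these genes had many distal regions, where the median gene had 4, and 3 to 5 of those at Ets1, Hmga2, Fam198b, Irf2bp2 and Bcas3 were called in all 4 libraries. The windows drawn around Ets1 and Hmga2 held 16 and 15 peaks of LP 1, 33 and 32 of LP 2, 53 and 40 of HP 1 and 53 each of HP 2. None of the LP peaks in these windows touched an HP-only region, which is the rule itself.

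**Figure D4:**
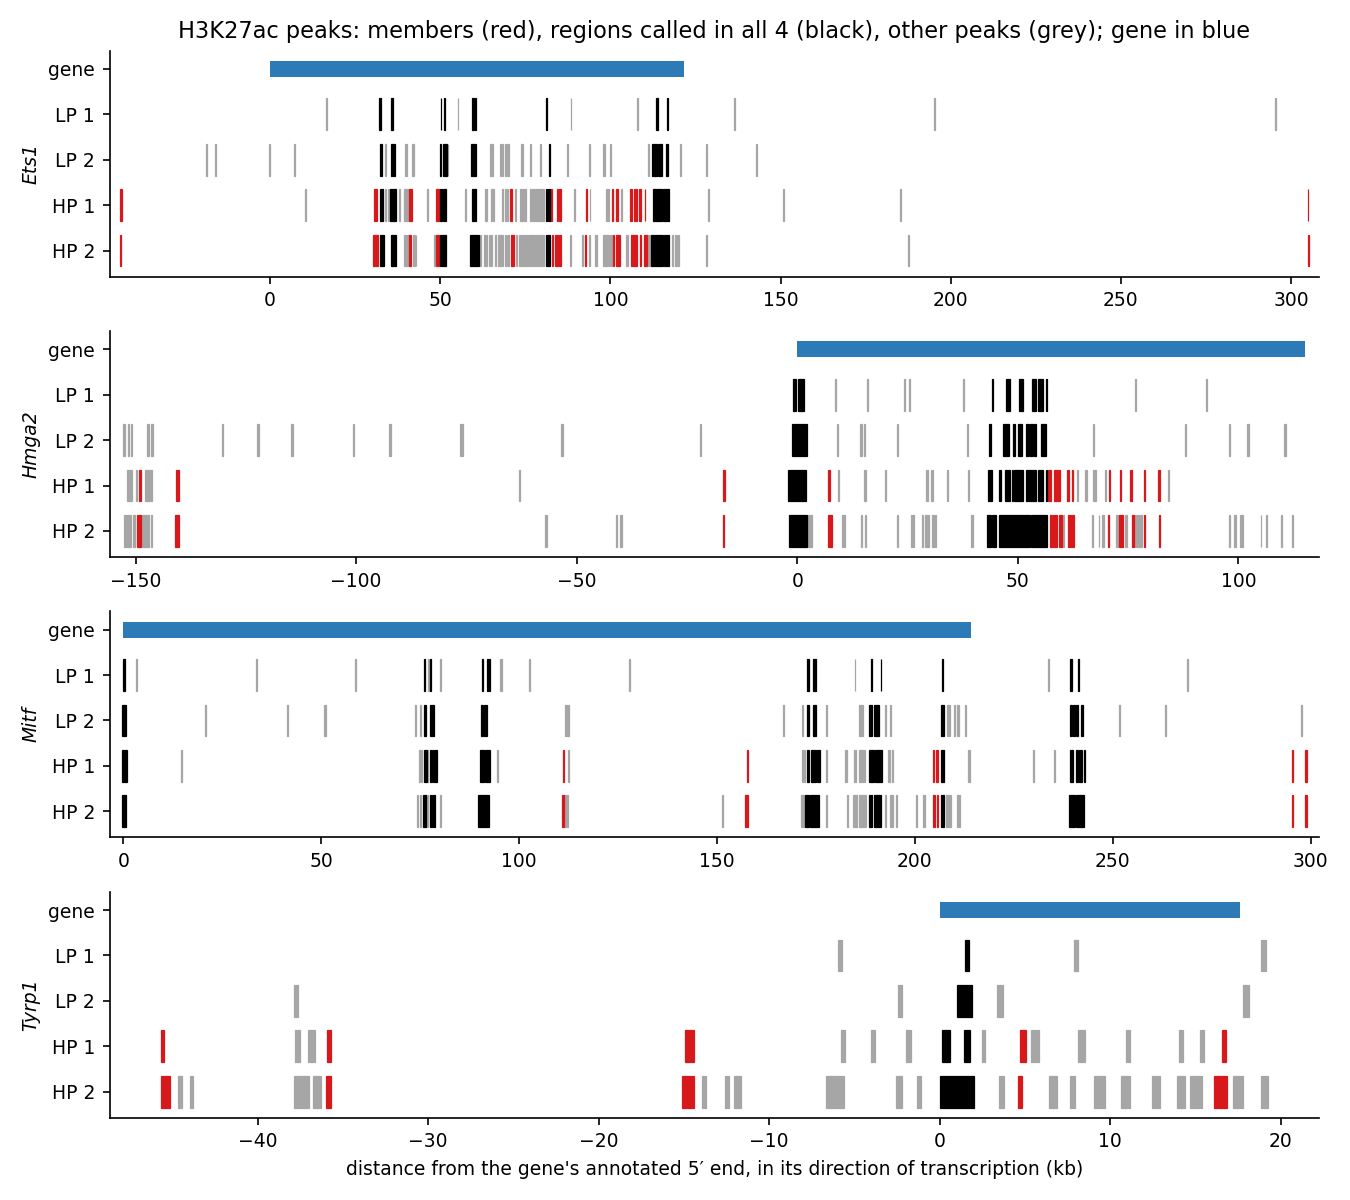
Peaks of LP 1, LP 2, HP 1 and HP 2 around Ets1, Hmga2, Mitf and Tyrp1, by distance (kb) from the annotated 5′ end of the gene, drawn in blue. Peaks of HP-only regions are red, those of regions called in all 4 libraries black and all others grey. HP-only regions number 15, 14, 6 and 5 at these genes and have no LP peak in the same merged region.

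Genes of melanin synthesis and melanosomes had at least 1 HP-only region in 15 of the 23 cases with any distal region. This is 65.2%, beside 18.5% of all genes with a distal region. They held 29 HP-only regions, which were 6.11% of their 475 distal regions, beside 3.58% over all genes. Pigmentation genes had a median of 19 distal regions each against 4 over all genes, and a gene with more distal regions has more chances to hold one. The 29 regions were modest: scaled pileups ran from 0.522 to 1.57 in HP 1, with a median of 0.784, and from 0.421 to 2.53 in HP 2, with a median of 0.842. Both medians were below those of all 4724 regions. By position, 18 were intronic, 5 exonic and 6 intergenic. An LP peak lay within 1 kb of 12 of them, and 8 windows were mostly repeat.

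Tyrp1, which encodes a melanosomal enzyme that stabilises tyrosinase, had 5, the most in the list. The region 14.8 kb upstream (chromosome 4, 80819021 to 80819718) had a scaled pileup of 1.39 in HP 1 and 2.53 in HP 2. The region 35.8 kb upstream had 1.48 in HP 1 and 1.12 in HP 2, and that 45.4 kb upstream had 0.871 and 0.491. The remaining 2 lay within the gene, with 0.784 in HP 1 for both and 0.842 and 1.19 in HP 2. Of the 73 distal regions at Tyrp1, 0 were called in all 4 libraries.

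Tyr, the rate-limiting enzyme of melanin synthesis, had 1 region, 13.2 kb upstream of its TSS (chromosome 7, 87506475 to 87506931). Its scaled pileup was 0.697 in HP 1 and 0.631 in HP 2, or 8 and 9 fragments, below the median of all HP-only regions in both. The nearest LP peak was 13.2 kb away. Dct, which converts dopachrome, had a region over an exon with 1.13 in HP 1 and 0.842 in HP 2 and an intronic one with 0.522 and 0.982. Pmel, which forms the melanosome fibrils, had 1 in its first intron with 0.871 in HP 1 and 1.47 in HP 2.

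Among genes of melanosome transport and biogenesis, Mreg had the best-ranked region of the list, in its first intron, with 1.31 in HP 1 and 2.03 in HP 2. Rab38, a GTPase that sorts enzymes to melanosomes, had 3 intronic regions with 0.697 to 0.958 in HP 1 and 0.421 to 0.982 in HP 2. Rab27a, which tethers melanosomes for transport, had 2, with 1.13 and 0.697 in HP 1 and 0.772 and 0.631 in HP 2. Gpnmb, a PMEL-related glycoprotein, had 2 exonic regions, the higher with 1.57 in HP 1 and 1.61 in HP 2.

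Transporters were represented by single or few regions. Atp7a, the copper pump that loads tyrosinase, had 4 intronic regions, the strongest with 1.04 in HP 1 and 2.39 in HP 2 in a window that was 96.5% repeat. Slc24a5, a cation exchanger of melanosomes, had 2 intergenic regions with 0.697 and 1.04 in HP 1 and 1.54 and 1.26 in HP 2. Slc45a2 had 0.784 in HP 1 and 0.772 in HP 2, and Oca2, a melanosomal anion channel, had 0.784 and 0.772 as well.

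Slc7a11, the cystine transporter of pheomelanin synthesis, had 0.871 in HP 1 and 0.631 in HP 2, and Trpm1, an ion channel, had 0.697 and 0.772. Bace2, a protease that cuts PMEL, had 2 regions, with 0.784 and 0.522 in HP 1 and 1.40 and 0.421 in HP 2. No HP-only region was nearest to Mlana, Mlph, Myo5a, Gpr143, Rab32, Slc24a4, Mcoln3 or Syt4, which had 2 to 31 distal regions each. Mc1r and Mfsd12 had no distal region.

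Transcription factors and receptors of melanocytes had an HP-only region in 15 of 24 genes (62.5%, beside 18.5% of all genes with a distal region). The count was 16 with a regulatory domain that extends to the neighbouring genes. It was 10 with the gene and 3 kb beyond its ends. Their 48 regions were 5.52% of 870 distal regions, beside 3.58% over all genes, and the genes had a median of 25 distal regions. Median scaled pileups were 0.871 in HP 1 and 0.982 in HP 2, again below those of all HP-only regions. First introns held 19, other introns 9, exons 3 and intergenic sequence 17. A distal region called in all 4 libraries lay within 10 kb of 16 of the 48, and of 1 of the 29 at pigmentation genes.

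Mitf, the master regulator of the melanocyte lineage, had 6 HP-only regions of 65 distal regions, 10 of which were called in all 4 libraries. The strongest, in an intron of the longer transcripts (chromosome 6, 97917959 to 97918399), had 1.31 in HP 1 and 2.24 in HP 2. The best-ranked, downstream of the gene from 98105522 to 98106088, had 1.22 in HP 1 and 1.68 in HP 2. The intronic region with TCATGTG (97964227 to 97964970) had 1.04 in HP 1 and 1.12 in HP 2. The other 3 had 0.871 to 0.958 in HP 1 and 0.561 to 0.982 in HP 2.

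Sox5, a SOX factor that modulates SOX10 targets, also had 6, of 137 distal regions, with scaled pileups of 0.784 to 1.48 in HP 1 and 0.631 to 1.40 in HP 2. Pax3, which acts with SOX10 on Mitf, had 5, all between 0.491 and 1.13 in either library. The exonic region of Pax3 (chromosome 1, 78184710 to 78186071) had 1.13 in HP 1 and 0.912 in HP 2. Sox10 had 2, an intronic one with 1.48 in HP 1 and 1.19 in HP 2 and one 19.3 kb upstream with 0.871 and 0.842. Foxd3, a neural crest factor, had 2, more than 100 kb upstream, with 0.871 and 1.22 in HP 1 and 0.702 and 1.12 in HP 2.

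Among receptors and signalling genes, Ednrb, the endothelin receptor, had the best-ranked region, 53.4 kb upstream, with 1.39 in HP 1 and 1.82 in HP 2. Gnaq, its G protein subunit, had 3 in its first intron, the strongest with 1.39 in HP 1 and 1.61 in HP 2. Kit, the stem cell factor receptor, had 3 intergenic regions, and 1 of them differed most between the libraries, with 0.784 in HP 1 and 3.09 in HP 2. Met, the hepatocyte growth factor receptor, had 4, with 0.610 to 1.22 in HP 1 and 0.561 to 1.89 in HP 2.

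Zeb2, a factor of melanocyte differentiation, had 4 regions with 0.610 to 1.22 in HP 1 and 0.702 to 0.982 in HP 2, 1 of them 1538 kb away from its TSS. Sox9 had 4 and Irf4 and Bcl2 had 3 each, with none above 1.40 in either library. Irf4 and Bcl2 encode a regulator of tyrosinase and a survival factor of melanocyte stem cells. Zeb1 had 1 with 0.871 in HP 1 and 0.421 in HP 2, and Ppargc1a, a coactivator that raises Mitf, had 1 with 0.958 and 1.33. No HP-only region was nearest to Lef1, Tfap2a, Tfap2b, Snai2, Erbb3, Gna11, Tfe3, Tfeb or Usf1, which had 1 to 25 distal regions each.

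Genes of proliferation lay close to the share of all genes. Of 20 genes with a distal region, 4 had an HP-only region (20%, beside 18.5% of all genes with a distal region), and the 7 regions were 2.86% of 245 distal regions, beside 3.58% over all genes. These genes had a median of 3 distal regions. Myc, a driver of cell growth, had 4 of the 7, all in introns of the neighbouring Pvt1 and counted as first intron. The strongest, 147 kb downstream of Myc (chromosome 15, 62134160 to 62134461), had 1.92 in HP 1 and 1.54 in HP 2. The weakest had 0.435 and 0.421.

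Aurkb, a mitotic kinase, had 1 region 3.99 kb upstream with 1.04 in HP 1 and 0.772 in HP 2. E2f3, an activator of the cell cycle, had 1 with 0.435 in HP 1 and 0.772 in HP 2, and E2f7, a repressor of the same family, had 1 with 0.784 and 0.631. The count of proliferation genes depended on the assignment: 8 had an HP-only region in a regulatory domain that extends to the neighbouring genes, and 1 had one inside the gene or 3 kb beyond its ends.

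The signalling lists were also above 3.58%. They were above all genes among regions called in all 4 libraries too. There AP-1 and immediate early genes had 6.60%, Wnt 3.03%, MAPK and ETS 3.45% and TGF-beta 3.60% of their distal regions, beside 1.52% over all genes. By the same measure, melanocyte factors had 4.14%, proliferation genes 2.45%, pigmentation genes 1.47% and lysosome genes 1.03%. AP-1 and immediate early genes had 9 HP-only regions (8.49% of 106 distal regions), 5 at Fos, 3 at Jun and 1 at Egr3. The strongest at Fos, a subunit of AP-1, lay 11.9 kb upstream and had 2.00 in HP 1 and 2.17 in HP 2. Wnt pathway genes had 16 (8.08% of 198), 5 of them at Tcf7l2, a nuclear partner of beta-catenin, where the highest values were 2.70 in HP 1 and 2.88 in HP 2 at different regions. MAPK feedback and ETS genes had 18 (5.64% of 319), 6 of them at Etv6, an ETS repressor. Genes of TGF-beta, Hippo and dedifferentiation had 19 (5.26% of 361), with 4 at Smad7, an inhibitor of TGF-beta signalling.

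Lysosome genes had 7 (7.22% of 97), of which 5 formed 1 run in the first intron of Atp6v1a, a subunit of the proton pump that acidifies lysosomes and melanosomes. That run had 1 region with 1.48 in HP 1 and 3.02 in HP 2, and 4 with 0.610 to 1.04 in HP 1 and 0.561 to 1.26 in HP 2. The lists are small, and their genes other than those of the cell cycle and lysosome lists have more distal regions than the median gene. Since nearby regions at 1 gene are not independent, no test was made over the lists.

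**Figure D5:**
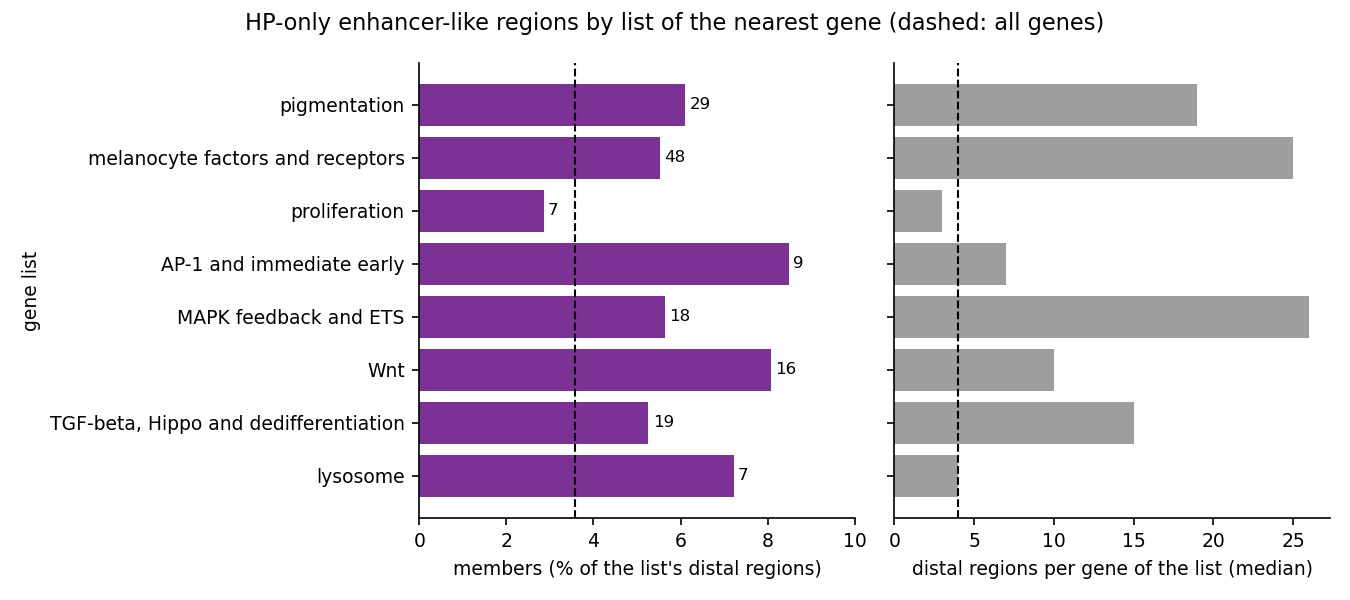
Left, HP-only regions as a share (%) of the distal regions nearest to the genes of 8 lists, with the number of HP-only regions beside each bar. Right, the median number of distal regions per gene. Dashed lines give all protein-coding genes, 3.58% and 4. Only the proliferation list, at 2.86%, is under the line for all genes on the left.

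Genes nearest to HP-only regions mostly had acetylated promoters in both states. Of the 2876 genes, 70.0% had a promoter region called in all 4 libraries, against 46.2% of all protein-coding genes. The same share was 72.6% for genes nearest to distal regions of all 4 libraries and 64.5% for those nearest to LP-only distal regions. Each gene entered a single class, so genes counted as called in all 4 are left out of the next count. A promoter region called in both HP libraries only was counted for 88 of the 2876 genes (3.06%). This stands against 3.70% of the genes nearest to distal regions of all 4 libraries and 2.46% of all protein-coding genes. These shares are of all genes of a group, and the groups differ in how many genes were left to count. Promoter regions called in all 4 libraries carry a value in each library, so LP and HP were compared there with limma on log2 scaled pileup, fitted over all 12084 regions called in all 4 libraries, with Benjamini-Hochberg adjustment. Across these 12084 regions HP was higher by a median of 0.92 on the log2 scale, and 485 passed an adjusted p of 0.05 as higher in HP (4.01%) and 0 as lower. The median moved by about 1 log2 unit, to -0.09, with each library centred on its median, and then 0 regions passed, with 177 higher at an unadjusted p under 0.05 (1.46%). With the replicate number as a block, 88 of the 12084 were higher (0.728%).

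At promoters of genes nearest to HP-only regions, 69 of 2394 were higher in HP (2.88%), beside 3.1% of all 10063 promoter regions. The median difference was 0.91 log2 units there and 0.90 over all promoter regions. These genes were picked by calls of the same libraries, so the counts describe and lend no support. With the same block, 15 of 2394 passed (0.627%), beside 0.556% of all. The counts were not stable: 0 passed without LP 1, LP 2 or HP 2, and 1223 passed without HP 1.

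Among pigmentation genes with an HP-only region, 0 of 13 promoter regions passed, beside 3.1% of all 10063 promoter regions. Their log2 differences ran from 0.52 to 1.55, SE 0.54 for each region. The promoter of Tyr, the tyrosinase gene, had 0.872 in LP 1, 0.847 in LP 2, 2.09 in HP 1 and 1.40 in HP 2. Both HP values were above both LP values, and the log2 difference of 0.99 had an adjusted p of 0.155 by limma. The promoter of Pmel had 3.05 in LP 1, 1.89 in LP 2, 4.79 in HP 1 and 9.33 in HP 2, with a log2 difference of 1.48 and an adjusted p of 0.071 by limma. At Tyrp1 the groups overlapped, with 1.66 in LP 1, 0.521 in LP 2, 1.22 in HP 1 and 3.02 in HP 2. Its log2 difference of 1.05 still had an adjusted p of 0.142 by limma, below that of Tyr, since all regions share the same SE.

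Among melanocyte factors and receptors with an HP-only region, 2 of 13 promoter regions passed, beside 3.1% of all 10063 promoter regions. With the replicate block 0 of the 13 passed. With each library centred on its median, 0 of all 12084 regions passed. A region at a downstream TSS of Met (chromosome 6, 17490565 to 17492427) had 0.436 in LP 1, 1.17 in LP 2, 1.57 in HP 1 and 3.65 in HP 2. Its log2 difference was 1.74, with an adjusted p of 0.047 by limma and 0.061 with the replicate block. The LP 1 value of this region is the lowest of any called peak in that library. The other Met promoter regions had log2 differences of 1.18 and 0.27, with adjusted p of 0.114 and 0.642 by limma. A Pax3 promoter region (chromosome 1, 78187318 to 78194222) had 1.13 in LP 1, 1.56 in LP 2, 3.31 in HP 1 and 5.68 in HP 2. Its log2 difference was 1.70, with an adjusted p of 0.049 by limma and 0.062 with the block. Mitf had 1.83 in LP 1, 2.28 in LP 2, 3.22 in HP 1 and 4.07 in HP 2 at the promoter of its long transcripts, a log2 difference of 0.83 that did not pass (adjusted p of 0.214 by limma). The promoter of Myc, in the proliferation list, had 0.872 in LP 1, 1.63 in LP 2, 2.87 in HP 1 and 4.70 in HP 2. Its values gave a log2 difference of 1.62 with an adjusted p of 0.053 by limma.

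Distal regions called in all 4 libraries that lay within 50 kb of an HP-only region were compared in the same fit. Nearness to an HP-only region was set by calls of the same libraries, so these counts describe and lend no support. Of 1151 such regions, 113 were higher in HP (9.82%), beside 8.6% of all 2012 distal regions of all 4 libraries and 6.97% of the 861 that lay farther away. The median log2 differences were 1.11 near and 1.01 farther away, and this gap was not tested. With the replicate block 27 passed near (2.35%), beside 1.59% of all. As at promoters, 0 passed without LP 1, LP 2 or HP 2, and 777 near regions passed without HP 1. Within 10 kb the share was 9.97% and within 100 kb 9.45%.

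Most of the motif shares of HP-only summits lay close to those of all distal summits. Matches were counted on both strands within 100 bases of the summit for 12 motifs. The MITF form TCACGTG was in 1.48% of the HP-only windows (95% Wilson interval 1.17 to 1.87) and in 1.01% of all distal windows, and the form TCATGTG was in 3.47% (2.99 to 4.03) against 3.88%. TCACGTG was also in 1.53% of the windows of both HP and 1 LP and in 2.04% of those of all 4 libraries. Its share was thus not particular to the HP-only regions. Each motif was also searched with its letters in reverse order, which gave 1.93% against 1.78% for the first form and 2.35% against 2.10% for the second. Reversal keeps the bases but can remove or add a CG pair, as it does for TCACGTG, CCGGAAGT and GCCNNNGGC. The mean number of CG pairs was 3.25 in HP-only windows and 2.41 in all distal windows. The reversed shares are therefore no matched background for these motifs. Either form was in 229 of the 4724 windows (4.85%), beside 4.84% of all distal windows and 4.82% of those of all 4 libraries. None of the 29 windows at pigmentation genes held either form, nor did the 9 longer sequences printed above, while 4 of the 48 at melanocyte factors did, the Pax3, Foxd3, Mitf and Sox5 stretches. The Pax3 match lay 23 bp from its summit and that of Mitf 97 bp.

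The SOX core ACAAAG was in 17.5% of HP-only windows and in 17.1% of all distal windows, and printed windows of Mreg and Atp7a hold it. The LEF and TCF letters CTTTGAT were in 2.71% against 3.30%, and the AP-1 site TGANTCA in 6.94% against 6.17%. The TFAP2 letters GCCNNNGGC were in 7.90% of HP-only windows, 5.20% of all distal windows and 13.1% of the windows of all 4 libraries, and the median GC content of the sets has the same order. Shares for the TEAD core GGAATG were 11.2% against 10.5% and for the E2F core GCGGGAA, present in the printed Mitf window, 0.931% against 0.558%. GCGGGAA reversed was in 0.974% against 0.555%, and GCCNNNGGC reversed in 0.741% against 0.747%.

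CCACNAGG, within the CTCF site, was in 3.05% against 2.85%, the composite element of IRF and ETS factors, held by the Abl1 window, in 1.97% against 1.95%, and the CRE TGACGTCA in 0.191% against 0.159%. The ETS letters CCGGAAGT were in 20 HP-only windows (0.423%, 95% Wilson interval 0.274 to 0.653) and in 0.195% of all distal windows. They were in 0.465% of the windows of both HP and 1 LP and in 0.149% of those of all 4 libraries. CCGGAAGT reversed was in 1.19% of HP-only windows and in 0.935% of all distal windows. ACAAAG and TGANTCA reversed were in 14.5% and 5.10% of HP-only windows and in 15.3% and 4.96% of all. Some of these letters can overlap one another, a match is no bound site, and no match says only that the letters are not in the window.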

How the data were processed

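H3K27ac ChIP-seq peaks were analysed for 2 LP and 2 HP libraries. Per the labels and the methods of the study, the authors trimmed reads with Trimmomatic 0.33, aligned them to mm10 with Bowtie2 2.5.1 and called peaks in each library, with the equally numbered IgG as background, with MACS 3.0.0b1 on paired ends, all duplicates kept, at a q-value of 0.05. The deposited lists give the pileup, a signal in whole fragments that the authors did not scale for depth, the fold enrichment over the local background and −log10 of the p-value and q-value. Without a call there is no value in a list, and the coverage there is unknown.

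Peaks were merged where they overlapped by 1 bp or more. A region took its highest summit pileup in a library, divided by the library's fragments and multiplied by 1000000. Transcripts came from GENCODE release M21 and sequence from the GRCm38.p6 assembly of RefSeq. A region was assigned to the nearest protein-coding TSS. LP and HP were compared with limma 3.58.1 (R 4.3.3) on log2 scaled pileup, over regions that all 4 libraries called, two-sided, with Benjamini-Hochberg adjustment at 0.05. The main fit pooled the spread, giving all 12084 regions the same SE of 0.543 on the log2 scale. Its p-values thus follow the size of the log2 difference, not the replicates of the single region. An exact test of 2 against 2 libraries cannot go below a p of 0.333. Replicate numbers pair the libraries, since the labels and methods tie a number to a shared amount of DNA and IgG library. The main fit left this pairing out, and the fit with the replicate block used it. The correlation of the replicate differences of LP and HP was 0.0153. The fit was run on simulated data with a known change in some regions. These data held no shift of all regions in HP, so they do not test the scaling. Wilson intervals and fragment numbers cover counting error only.

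Named were the 5 best-ranked regions, the 5 genes and the 5 runs with most regions, and every gene of the pigmentation, melanocyte factor and proliferation lists with a region. Examples from the other lists, Dst, 2010315B03Rik and the Tyr, Pmel, Tyrp1, Mitf, Met, Pax3 and Myc promoters were picked after their values were seen. The regions and lists were chosen with earlier results of these data known. Alternatives changed the calling limits, the distances, the gene assignment, the motif window and summit, the scaling, the replicate block and the libraries used. The IgG libraries were not analysed here, and 2 sequences and 1 marker gene are not reported here.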

Additional observations from a re-analysis of the deposited data

How the results depend on the processing

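The number of HP-only regions was 2395 when the HP peaks had to share 50% of both widths and 2713 at more than 10 kb from every TSS, and from 5477 to 34965 with a library or replicate left out. At a q-value of at most 0.01 the rule gave 4560, and 4298 of the 4724 regions were among them. The share in introns was 51.9% with peaks within 500 bp joined, 53.5% without regions that had an LP peak within 1 kb and also 53.5% beyond 10 kb from a TSS, 52.8% with protein-coding TSSs, 51.4% with protein-coding transcripts only, and from 49.7% to 55.6% with libraries left out. The share with a neighbour within 10 kb was 15.97% with peaks joined, 18.7% with HP peaks sharing 50% of both widths, 24.6% without LP peaks within 1 kb, 32.7% beyond 1 kb from a TSS, 32.8% with protein-coding TSSs and 34.2% to 47.4% with libraries left out, while 25.1% had a neighbour within 5 kb and 38.5% within 20 kb. The median log2 ratio of HP 2 to HP 1 turned from 0.10 to -0.65 when libraries were divided by their medians. With the replicate block, 15 promoter regions and 27 distal regions near HP-only regions were higher in HP. With centring, quantile normalization or the mean summit pileup, 0 of either were, and with libraries left out from 0 to 1223 promoter and from 0 to 777 distal regions. Where a fit left 1 library in a state, that library was assumed to vary like the other state. The causes were not tested. Of the gene list counts, 17 stayed within 1.5 times of their values and 7 moved. Of the motif shares, 25 moved by no more than the error bar of their 95% Wilson interval and 23 by more. Their settings included the whole region and 50 bp on either side of the summit, and a share changes with window length by itself. With the summit of HP 1 or of HP 2 in the main window, only GCCNNNGGC moved by more, to 7.09% with HP 1. The lowest pileup of a called peak was 5 or 6 fragments, and the effect of depth on the calls was not tested.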
